A study of Mus musculus with 10 samples.

Results

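The genes examined here are 45 genes of the lysosome and of the transcription factors that drive it, taken by symbol from a fixed list out of the 26146 genes in the count table. They comprise 13 hydrolases of glycans and glycogen, 9 lipid hydrolases with their activators and carrier, 7 proteases, 7 membrane proteins, 6 parts of the proton pump or v-ATPase, and the 3 MiT/TFE transcription factors *Tfeb*, *Tfe3* and *Mitf*. All 45 were among the 14165 genes that passed the filter on low counts. They were measured by bulk polyA RNA-seq of haematopoietic stem cells (HSCs), sorted as Lin-Sca1+Kit+ (LSK) CD48-CD150+ cells, from 5 *Cited2* CTL and 5 *Cited2* CKO mice. *Cited2* encodes a transcriptional co-regulator that binds the CBP and p300 acetyltransferases. Mice of both genotypes carried floxed *Cited2* alleles and were 8 to 12 weeks old. The CKO mice also carried Vav-iCre, which deletes floxed alleles across the blood system, whereas the CTL mice had no Cre, so loss of *Cited2* and presence of the recombinase cannot be told apart. The libraries are named as labelled, WT1 to WT5 for *Cited2* CTL and KO1 to KO5 for *Cited2* CKO. Levels are given as CPM, read counts scaled to the size of the library, and where genes are compared with each other as RPKM, which divides them further by the length of the gene.

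Lysosomes are acidic organelles that degrade material delivered by endocytosis and autophagy. Acid hydrolases break down glycans, glycogen, lipids and proteins in their lumen, the v-ATPase pumps in the protons these enzymes need, and proteins of the limiting membrane protect it and move ions, lipids and other products across it. TFEB, TFE3 and MITF are related basic helix-loop-helix factors that bind E-boxes with the core CACGTG, including the sites known as CLEAR elements in the promoters of many lysosomal genes, and they are held in the cytoplasm when the kinase mTORC1 is active. In HSCs, lysosomal activity has been linked to quiescence and to the turnover of mitochondria.

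The promoter windows of 4 members are shown because they span the range of E-box content that is set beside the expression values further on. Each runs from 250 bases before to 50 bases after the annotated start, 5′ to 3′ on the strand of the gene, from RefSeq on GRCm38.p6, with each CACGTG in capitals. *Gaa* (chr11:119267713-119268012, plus strand) has 1 E-box, *Mcoln1* (chr8:3500269-3500568, plus strand) has 2, *Lamp1* (chr8:13158911-13159210, plus strand) has 4 and *Tpp1* (chr7:105752186-105752485, minus strand) has 0.
Gaa: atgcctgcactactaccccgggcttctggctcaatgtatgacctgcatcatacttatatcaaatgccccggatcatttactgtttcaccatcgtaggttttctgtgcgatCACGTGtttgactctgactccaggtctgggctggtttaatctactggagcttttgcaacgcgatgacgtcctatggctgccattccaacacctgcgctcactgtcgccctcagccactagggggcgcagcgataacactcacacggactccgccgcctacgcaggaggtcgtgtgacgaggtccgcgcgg
Mcoln1: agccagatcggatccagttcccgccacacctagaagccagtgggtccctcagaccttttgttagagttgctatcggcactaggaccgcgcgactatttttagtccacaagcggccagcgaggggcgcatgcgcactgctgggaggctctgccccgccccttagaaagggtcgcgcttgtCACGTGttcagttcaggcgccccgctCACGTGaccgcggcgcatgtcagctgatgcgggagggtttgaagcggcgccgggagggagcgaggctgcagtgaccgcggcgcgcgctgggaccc
Lamp1: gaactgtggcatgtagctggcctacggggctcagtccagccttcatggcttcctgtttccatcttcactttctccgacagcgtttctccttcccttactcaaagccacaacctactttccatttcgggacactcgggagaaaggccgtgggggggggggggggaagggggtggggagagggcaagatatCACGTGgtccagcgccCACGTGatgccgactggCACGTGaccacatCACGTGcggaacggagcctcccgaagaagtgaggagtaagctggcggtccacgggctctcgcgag
Tpp1: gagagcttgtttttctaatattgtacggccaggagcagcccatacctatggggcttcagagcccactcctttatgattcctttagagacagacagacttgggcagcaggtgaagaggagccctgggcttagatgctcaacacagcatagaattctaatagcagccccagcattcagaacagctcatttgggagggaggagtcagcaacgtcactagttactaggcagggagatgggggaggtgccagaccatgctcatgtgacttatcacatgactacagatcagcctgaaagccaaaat

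CACGTG, which is its own reverse complement, was found in the windows of 12 of the 39 members that had one, or 30.8%, against 1256 of 10966 tested genes, or 11.5%. Of all 32851 windows in the RefSeq table, 7.15% held it. The longer TCACGTGA, also its own reverse complement and always holding a CACGTG, was in the windows of 6 members (15.4%) and of 2.11% of tested genes, and the same motif with a further G before it and C after it was in those of 0 members and of 0.757% of tested genes. The 19 matches in member windows lay mostly close to the start, 13 of them within the 100 bases before it. *Asah1*, *Atp6v1b2*, *Atp6v1h*, *Ctsb*, *Ctsh* and *Npc1* had no window in the table. The other members with an E-box were the hydrolases *Sgsh*, *Gla*, *Arsa*, *Naglu* and *Glb1*, the proteases *Ctsd* and *Ctsa*, and the pump subunits *Atp6v0d1* and *Atp6v1a*.

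The libraries held 3058690 to 4548795 counts in *Cited2* CTL and 3500215 to 4315029 in *Cited2* CKO, and the members held 18 to 1881 counts per library. *Cited2* itself was at 101, 171, 162, 222 and 160 CPM in WT1 to WT5 and at 3.8, 4.21, 120, 5 and 8.3 CPM in KO1 to KO5, so the library labelled KO3 went against its label. Counts of members and the values of some genes are therefore also given without it. Markers of HSCs summed to 1861 to 2151 CPM in CTL and 1646 to 1837 in CKO, with all 9 detected and the genotypes apart; the part of this in the results on the lysosomal genes was not tested. The 14 markers of myeloid cells, which are rich in lysosomes, summed to 430 to 815 CPM in CTL and 426 to 636 in CKO. WT5 held the 815 CPM and KO5 the 636 CPM, while all other libraries lay between 426 and 488 CPM. Of these markers 10 passed the filter. *Lyz2* (197 to 263 CPM over all libraries) and *Prtn3* (89.8 to 139 CPM) made up much of the sum, and *Mpo* reached 190 CPM in 1 CTL library. *Itgam* was at 9.85 to 26.5 CPM in CTL and 22.4 to 62.1 CPM in CKO (log2 fold change 0.95, adjusted p = 0.23 by edgeR). *Elane* and *Mpo* went the other way from *Itgam*, at -1.47 and -0.63 on the log2 scale (adjusted p = 0.594 and 0.859 by edgeR). The rest of the tested myeloid markers lay between -0.25 (*Prtn3*) and 0.42 (*Adgre1*). *Ly6g*, a granulocyte marker, was at 0 throughout, and the macrophage markers *Csf1r* and *Adgre1* reached at most 7.37 and 10.1 CPM. Other markers of this list were present, with *S100a8*, *S100a9*, *Elane*, *Ctsg* and *Ly6c2* reaching 69.6, 66.1, 62.4, 35.9 and 26.7 CPM, each in a CTL library. Summed markers ranged over all libraries from 172 to 223 CPM for megakaryocytes, 51.4 to 90.8 for B cells (mostly *Cd79b*), 30.7 to 53 for erythroid cells and 0.23 to 3.71 for T cells. Of the 2 markers of progenitors outside the gate, *Cd48*, which the sort selects against, was at 14.4 to 27.4 CPM in CTL and 38.5 to 60.8 CPM in CKO (log2 fold change 1.18, adjusted p = 0.0264 by edgeR). *Flt3*, the other, was at 99.5 to 146 CPM in CTL and 84.9 to 104 CPM in CKO (log2 fold change -0.36, adjusted p = 0.194 by edgeR). The part of these markers was likewise not tested. In bulk RNA, fewer cells of a type and less RNA per cell cannot be told apart.

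HSCs expressed the lysosomal genes at high levels for a tested gene. The median member stood at 41.6 RPKM in *Cited2* CTL, against 15.7 RPKM for all tested genes, and 33 of the 45 exceeded that median. In all, 11 members exceeded 74.1 RPKM, the level reached by the top 10% of tested genes. The order was led by *Laptm5*, a membrane protein of blood cell lysosomes, at 161 ± 11.7 RPKM (SD, n = 5), followed by the aspartic protease gene *Ctsd* at 138 ± 12 RPKM. *Psap*, the precursor of the saposins that present sphingolipids to their hydrolases, stood at 116 ± 9.37 RPKM. The membrane protein genes *Laptm4a*, *Lamp1* and *Lamp2* followed at 114 ± 6.99, 114 ± 9.48 and 103 ± 10.6 RPKM. The order then passed through *Ppt1*, a thioesterase that removes palmitate from proteins, at 96.5 ± 2.34 RPKM and *Hexa*, a subunit of hexosaminidase, at 87.7 ± 7.19 RPKM.

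The roles differed in level. Membrane proteins had a median of 103 RPKM (range 12 to 161) and proton pump genes one of 55.3 RPKM (9.67 to 74.2). Proteases had a median of 54 RPKM (20.8 to 138), and the lipid group one of 45.2 RPKM (5.67 to 116). Hydrolases of glycans and glycogen were lower, at a median of 20.3 RPKM (2.77 to 87.7), and the MiT/TFE factors were among the lowest members, with *Tfe3* at 12.6 ± 2.26, *Tfeb* at 4.49 ± 0.606 and *Mitf* at 3.22 ± 1.32 RPKM. The lowest of all was *Ids*, which encodes the sulfatase of heparan and dermatan sulfate that is lacking in Hunter syndrome, at 2.77 ± 0.819 RPKM. Neighbours in this order mostly could not be separated, since the ranges of the CTL libraries were apart in 2 of the 44 neighbouring pairs, *Ctsa* above *Smpd1* and *Naglu* above *Arsa*.

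The median member varied less between mice than the median tested gene. The median coefficient of variation of the members over the 5 mice was 9.58% for CTL and 10.6% for CKO, against 17.1% and 19.3% for all tested genes. This comparison was not matched for level, and the members stood higher, at a median of 41.6 against 15.7 RPKM in CTL. The part of level in the lower variation was not tested. Summed over the 45 genes, the libraries held 6324, 6058, 5775, 5976 and 5795 CPM in WT1 to WT5 and 5717, 5989, 5594, 5878 and 5716 CPM in KO1 to KO5. The means were 5986 ± 224 and 5779 ± 155 CPM (SD, n = 5 each), a ratio of 0.965, and the genotypes overlapped.

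The comparison of the genotypes asks whether HSCs without *Cited2* differ in the expression of lysosomal genes. None of the 45 members was called changed, a call being an adjusted p under 0.05 by edgeR's quasi-likelihood test together with a fold change above 20%. By the same rule 0.12% of tested genes were called higher and 0.106% lower. At an unadjusted p under 0.05, 3 members were higher in *Cited2* CKO (background 5.8% of tested genes) and 5 were lower (background 7.08%). The higher ones were *Ctsh*, *Atp6ap1* and *Ids*, and the lower ones *Gaa*, *Smpd1*, *Tpp1*, *Mcoln1* and *Ctsd*. The genotypes did not overlap in *Gaa* and *Tpp1*, both lower in CKO (background 1.98%), and in *Ctsh*, higher in CKO (background 1.35%). By the Wald test of DESeq2, which called 1.04% of tested genes higher and 1.24% lower, 1 member was called, *Gaa*, and it was lower in CKO (adjusted p = 0.00232).

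The fitted log2 fold changes of the members ran from -0.50 for *Smpd1* to 0.69 for *Ids*, with a median of -0.08 beside 0.01 for all tested genes. In all, 30 members lay below 0, against 49% of tested genes, and 9 lay beyond a 20% fold, against 34% of tested genes. For 26 members the fitted ratio was between 0.9 and 1.1. Without the library labelled KO3 the median was -0.07, 30 members again lay below 0, and 0 were called (background 0.188% higher and 0.104% lower). At an unadjusted p under 0.05, 3 were then higher (background 5.19%) and 5 lower (background 6.25%), *Atp6v0a1* in place of *Ctsd*. *Ids* joined *Ctsh* as higher without overlap (background 2.31%), beside the same pair that was lower (background 2.73%).

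**Figure D1:**
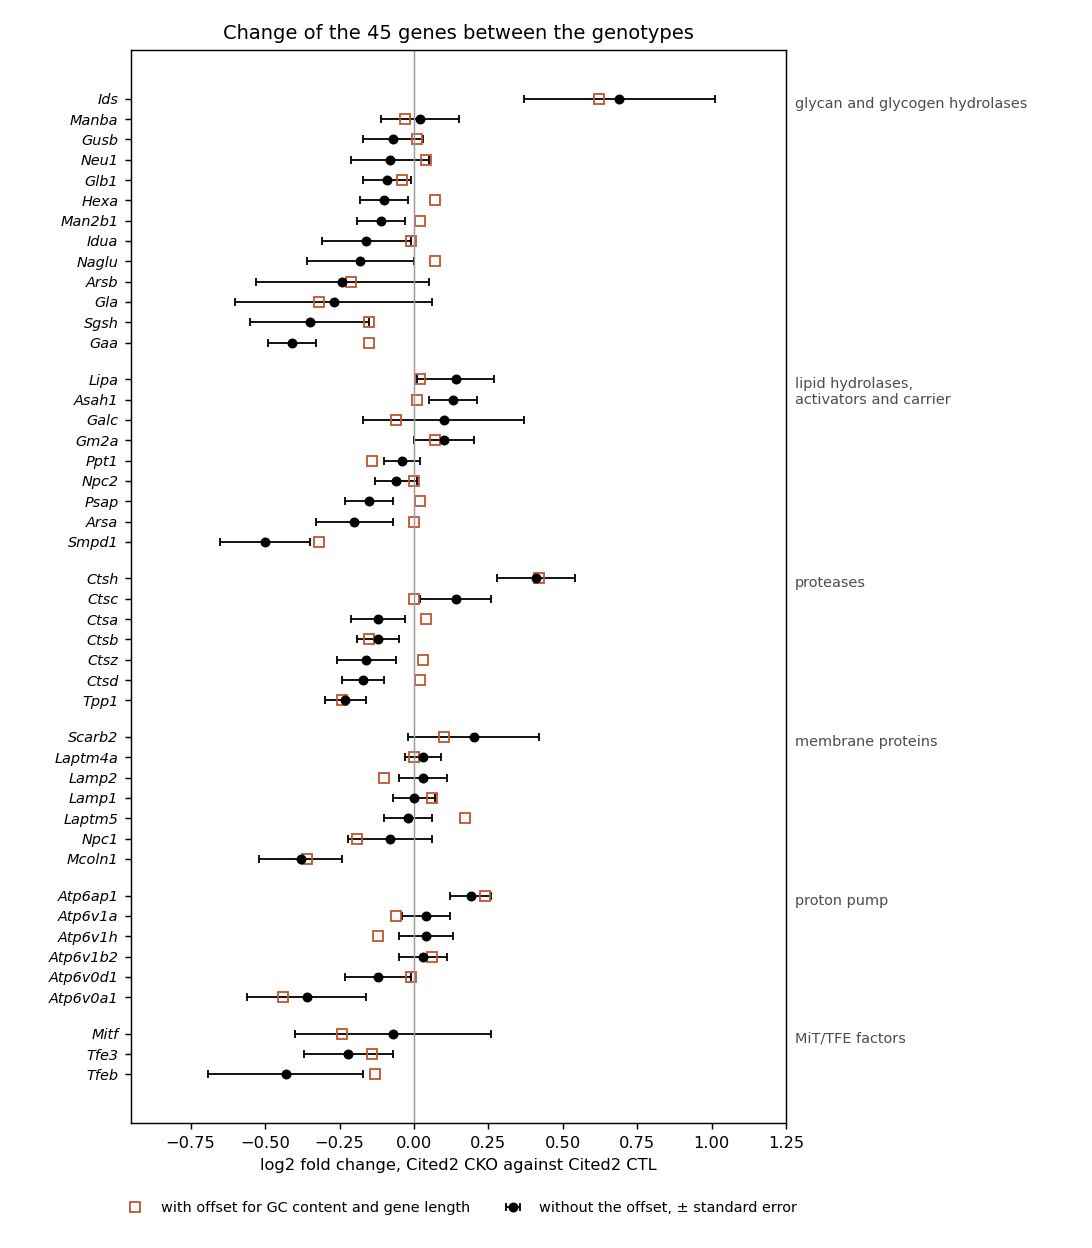
Log2 fold change of *Cited2* CKO against *Cited2* CTL for the 45 members, by role. Black points with bars are edgeR estimates with their standard errors, and open squares the estimates corrected for GC and length; most points lie within 0.26 of 0, the log2 of a 20% fold, and *Ids* is the farthest to the right.

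Among the hydrolases of glycans and glycogen, 11 of 13 had a log2 fold change below 0, with a median of -0.11, and 1 in each direction had an unadjusted p under 0.05. After a correction that removed the trend of each library with GC content and gene length, entered as an offset in the fit, 7 of 13 were below 0, with a median of -0.01, and 0 had an unadjusted p under 0.05. *Gaa* encodes acid alpha-glucosidase, which degrades glycogen in lysosomes, and lies at chr11:119267887-119285454 of GRCm38. It was measured at 182, 210, 181, 178 and 154 CPM in WT1 to WT5 and at 148, 134, 131, 137 and 131 CPM in KO1 to KO5. Every CTL library was above every CKO library, WT5 and KO1 being the closest. This gave a log2 fold change of -0.41 ± 0.08 (SE), with an adjusted p of 0.07 by edgeR. With the offset it was -0.15 (adjusted p = 0.833 by edgeR).

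*Ids* (chrX:70343069-70365084) was at 12.4, 17.4, 15.3, 7.31 and 16.4 CPM in CTL and at 20, 20.3, 12.3, 18.2 and 40.6 CPM in CKO. All CKO libraries but KO3 were above every CTL library, and KO5 stood far above the others. The log2 fold change was 0.69 ± 0.32 (adjusted p = 0.386 by edgeR) with all libraries, 0.35 without KO5, and 0.85 without KO3 (adjusted p = 0.295). *Hexa* was at 187, 160, 160, 160 and 151 CPM in CTL and at 161, 151, 141, 146 and 164 CPM in CKO. The genotypes overlapped, and the highest value was that of WT1. The sulfamidase gene *Sgsh* was at a log2 fold change of -0.35 ± 0.20 (adjusted p = 0.489), -0.15 with the offset and -0.23 without KO3, and with all libraries the other hydrolases of this kind lay between -0.27 (*Gla*, lacking in Fabry disease) and 0.02 (*Manba*, -0.07 without KO3). Within this range, *Arsb* was at -0.24 ± 0.29 and moved to -0.41 without KO3, its highest CKO library at 44 CPM (adjusted p = 0.649 by edgeR). The sum over all hydrolases of glycans and glycogen was 1182 ± 68.9 CPM in CTL and 1070 ± 54.2 CPM in CKO (SD, n = 5 each), and KO5, at 1161 CPM, was within the CTL range of 1119 to 1295 CPM.

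The lipid group was split, with 4 of 9 members above 0 and 5 below and a median log2 fold change of -0.04 (6 above, 3 below and 0.00 with the offset). *Smpd1* (chr7:105554360-105558389) encodes acid sphingomyelinase, which releases ceramide from sphingomyelin. It was at 79.6, 66.4, 68.8, 73.6 and 78.3 CPM in WT1 to WT5 and at 38.5, 45, 49.9, 56.1 and 69.1 CPM in KO1 to KO5. KO5 lay within the CTL range and the other CKO libraries were below it. It stood at a log2 fold change of -0.50 ± 0.15 (adjusted p = 0.168 by edgeR), and -0.32 with the offset. Other genes of sphingolipid breakdown differed in sign: *Asah1*, the acid ceramidase gene, was at 0.13 ± 0.08 and *Psap* at -0.15 ± 0.08, neither below an adjusted p of 0.457. *Psap* was measured at 361, 311, 316, 294 and 306 CPM in CTL and at 286, 327, 257, 295 and 269 CPM in CKO, with overlap. *Npc2*, a soluble cholesterol carrier, stood at -0.06 ± 0.07, and at -0.01 without KO3. *Lipa*, the acid lipase gene, was at 0.14 ± 0.13 and the sulfatase gene *Arsa* at -0.20 ± 0.13. With the offset *Asah1*, *Psap*, *Npc2*, *Lipa* and *Arsa* all lay between 0.00 and 0.02.

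Of the 7 proteases, 5 were below 0 and 2 above, and 3 had an unadjusted p under 0.05. With the offset 3 were below 0 and 4 above, and 2 had an unadjusted p under 0.05. *Ctsh* (chr9:90054152-90076089), a cysteine protease with aminopeptidase activity, was at 32.1, 29.6, 32.6, 37.3 and 37 CPM in CTL and at 47.1, 49.7, 43.5, 39.4 and 44.7 CPM in CKO. All CKO libraries were above all CTL libraries, with KO4 the closest. Its difference was 0.41 ± 0.13 on the log2 scale, with an adjusted p of 0.21 by edgeR, and 0.42 with the offset. *Tpp1* (chr7:105744811-105752235), a serine protease that removes tripeptides and is lacking in a form of Batten disease, was at 175, 180, 185, 211 and 193 CPM in CTL and at 173, 166, 162, 146 and 159 CPM in CKO. The genotypes were separated, though only narrowly between WT1 and KO1. For *Tpp1* the log2 fold change was -0.23 ± 0.07 (adjusted p = 0.225 by edgeR) and -0.24 with the offset.

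*Ctsd* (chr7:142375911-142388038) was at 306, 276, 265, 253 and 247 CPM in CTL and at 215, 247, 237, 256 and 238 CPM in CKO. WT1 was the highest and KO1 the lowest, and the rest ran together. Its log2 fold change of -0.17 ± 0.07 (adjusted p = 0.344 by edgeR) moved to 0.02 with the offset, and its exons overlap those of *Gm49369* on the same strand, so its counts are less certain. The cysteine proteases *Ctsb*, *Ctsz* and *Ctsc* were at -0.12 ± 0.07, -0.16 ± 0.10 and 0.14 ± 0.12, and with the offset at -0.15, 0.03 and 0.00. Without KO3 *Ctsc* was at 0.09.

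**Figure D2:**
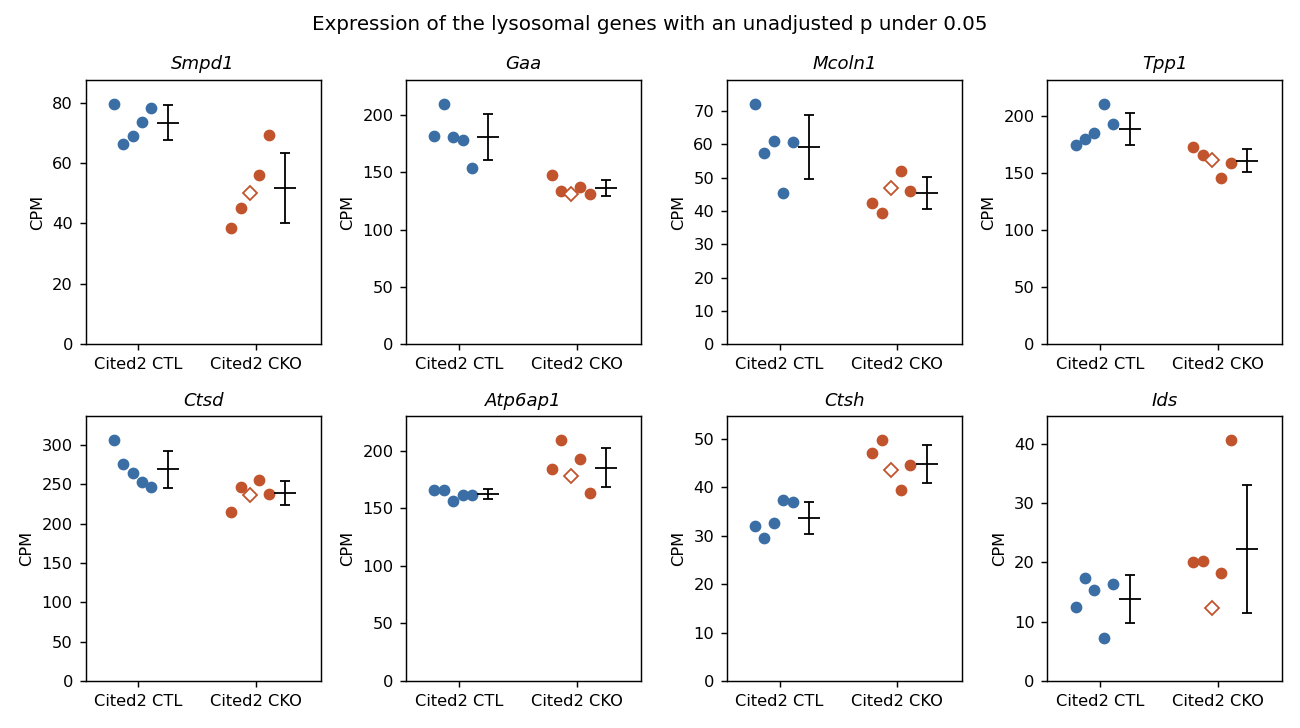
CPM of the 8 members with an unadjusted p under 0.05, 1 point per library, with the mean ± SD of each genotype beside the points (n = 5) and an open diamond for the library labelled KO3. In *Gaa*, *Tpp1* and *Ctsh* no CKO library falls within the CTL range, while the other panels overlap and *Ids* is drawn up by 1 library at 40.6 CPM.

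The transcripts of the abundant membrane proteins were nearly level between the genotypes without the offset. *Lamp1* was at 257 ± 21.4 CPM in CTL and 257 ± 13.9 CPM in CKO, a log2 fold change of 0.00 ± 0.07. *Lamp2*, *Laptm4a* and *Laptm5* were at 0.03 ± 0.08, 0.03 ± 0.06 and -0.02 ± 0.08, and with the offset at -0.10, 0.00 and 0.17. The cholesterol exporter gene *Npc1* was at -0.08 ± 0.14, and at -0.19 with the offset. For *Laptm5* the libraries held 424, 385, 405, 364 and 357 CPM in CTL and 373, 421, 340, 412 and 359 CPM in CKO, interleaved. *Mcoln1* (chr8:3500457-3515232), which encodes the lysosomal cation channel TRPML1, was at 72.2, 57.3, 60.9, 45.3 and 60.6 CPM in CTL and at 42.5, 39.3, 47, 52 and 46.1 CPM in CKO. WT4 lay among the CKO libraries and the other CTL libraries were above them. This gave a log2 fold change of -0.38 ± 0.14 (adjusted p = 0.27 by edgeR) and -0.36 with the offset. *Scarb2*, the receptor that carries glucocerebrosidase to lysosomes, spread widely in CKO, at 52.3, 65.6, 49.2, 24.4 and 41.2 CPM, around the CTL values of 40.5, 44, 48.5, 38.8 and 31.3 CPM (log2 fold change 0.20 ± 0.22). Leaving out KO2 or KO4 gave 0.05 or 0.36.

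In the proton pump the accessory subunit gene and a membrane subunit gene lay at opposite ends. *Atp6ap1* (chrX:74297097-74304721) was at 166, 166, 156, 162 and 162 CPM in CTL and at 184, 209, 178, 193 and 163 CPM in CKO. The CTL libraries were close together, and KO5 alone fell in their range. The log2 fold change was 0.19 ± 0.07 (adjusted p = 0.303 by edgeR) and 0.24 with the offset. *Atp6v0a1*, a subunit of the sector in the membrane, was at 30.8, 45, 36.5, 34.9 and 47.7 CPM in CTL and at 39.2, 24.7, 40.2, 25.6 and 22.1 CPM in CKO. KO1 and KO3 were within the CTL range and the other CKO libraries below it. The log2 fold change of *Atp6v0a1* was -0.36 ± 0.20 (adjusted p = 0.482 by edgeR). It was -0.44 with the offset (adjusted p = 0.666 by edgeR) and -0.48 without KO3 (adjusted p = 0.377 by edgeR). The subunits of the catalytic sector were nearly level without the offset, with *Atp6v1a* at 0.04 ± 0.08, *Atp6v1h* at 0.04 ± 0.09 and *Atp6v1b2* at 0.03 ± 0.08, and stood at -0.06, -0.12 and 0.06 with it. *Atp6v1h* was at -0.01 without KO3. The summed level of the 6 genes was 757 ± 18.2 CPM in CTL and 779 ± 52.7 CPM in CKO.

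All 3 MiT/TFE factors had log2 fold changes below 0, and none passed the test. *Tfeb* (chr17:47737030-47792419) was at 11, 12.4, 12.1, 15.6 and 12.5 CPM in WT1 to WT5 and at 8.56, 8.16, 9.45, 12.6 and 8.53 CPM in KO1 to KO5. KO4 was above 4 of the 5 CTL libraries and the other CKO libraries were below all of them. The log2 fold change was -0.43 ± 0.26 (adjusted p = 0.519 by edgeR), and these values rest on 33 to 64 counts per library. *Tfe3* (chrX:7762560-7775202) was at 53.2, 35.1, 35.3, 40 and 42.7 CPM in CTL and at 34.2, 34.6, 37.6, 38.8 and 31.6 CPM in CKO, a log2 fold change of -0.22 ± 0.15 (adjusted p = 0.565), and -0.12 without WT1. WT1 stood above the rest and the other libraries overlapped. *Mitf* (chr6:97807052-98021349) ran from 6.02 to 22.7 CPM in CTL and from 9.45 to 22.8 CPM in CKO, so the spread within each genotype was far larger than the difference of -0.07 ± 0.33 (-0.13 without KO3). With the offset the 3 genes were at -0.13, -0.14 and -0.24. These are transcript levels, and the location of the proteins in the cell, on which their activity turns, was not measured.

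**Figure D3:**
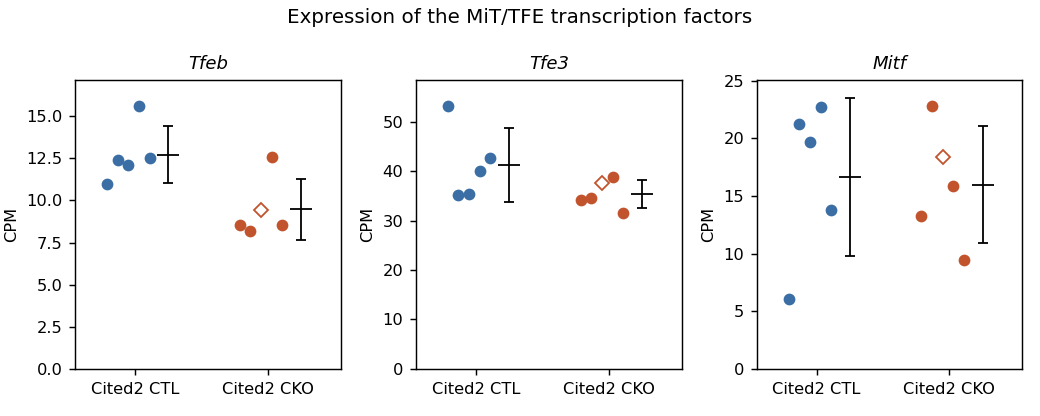
CPM of *Tfeb*, *Tfe3* and *Mitf*, 1 point per library, with the mean ± SD of each genotype beside the points (n = 5) and an open diamond for the library labelled KO3. For *Tfeb* the KO4 library lies at 12.6 CPM among the CTL libraries, and for *Mitf* both genotypes are widely spread.

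The members that carry an E-box in the promoter window were compared with those that do not. The 12 members with CACGTG had a median log2 fold change of -0.18, from -0.41 for *Gaa* to 0.04 for *Atp6v1a*, and 11 were below 0, *Lamp1* among them with a value that rounds to 0.00. The 27 members whose window lacked it had a median of -0.07, and 17 were below 0. Across tested genes the medians were -0.02 with and 0.01 without CACGTG. The members with an E-box also had transcripts richer in GC, at a median of 54% against 50.8%. Once corrected by the offset, the medians of the members were -0.02 and 0.00, and 7 of 12 and 13 of 27 were below 0. In the 4 members whose windows are shown, *Lamp1*, with 4 E-boxes, was at 0.00, *Mcoln1*, with 2, at -0.38, *Gaa*, with 1, at -0.41, and *Tpp1*, with 0, at -0.23. Whether the number of E-boxes goes with the change over all members was not tested. A match describes the letters of the window only, and no binding was measured.

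**Figure D4:**
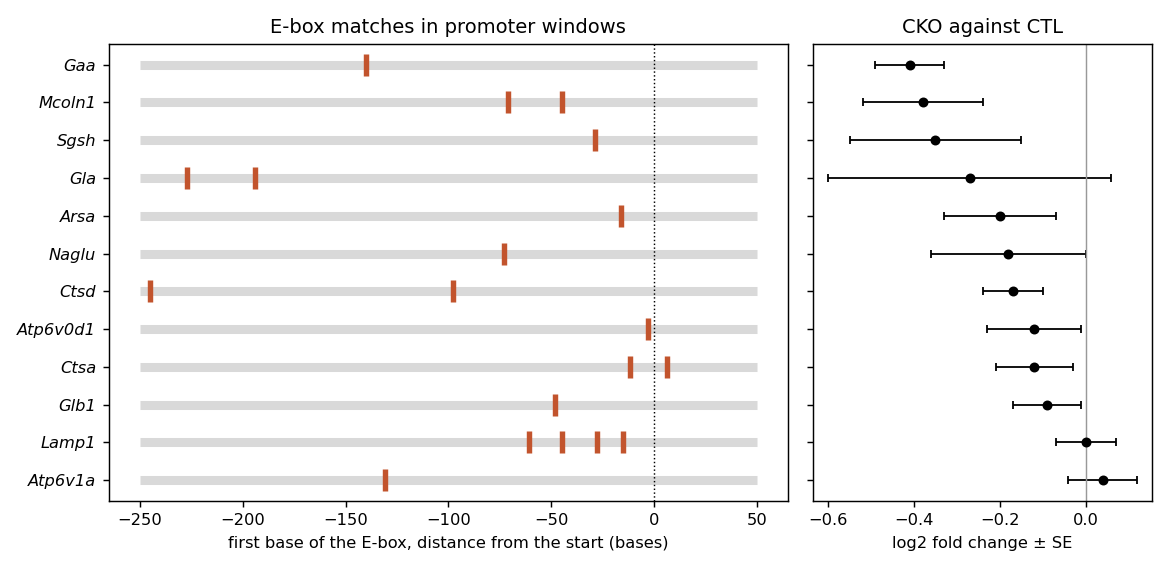
Left, position of each CACGTG in the promoter windows of the 12 members that hold one, in bases from the annotated start (dotted line), with the window of 250 bases before to 50 after the start in grey. Right, log2 fold change of *Cited2* CKO against *Cited2* CTL with its standard error; the members are sorted by it, from *Gaa* at -0.41 to *Atp6v1a* at 0.04.

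GC content moved with the differences across the whole table. Tested genes above the median GC content of 48.8% had a median log2 fold change of -0.11, and those at or below it had one of 0.10. The members split in the same way: 24 of the 27 above that GC content were below 0 (median -0.12), against 6 of the 18 at or below it (median 0.03). Across the 45 members GC content and log2 fold change had a Pearson r of -0.57 and a Spearman rho of -0.63, a description over genes that share the same libraries and are not independent. The offset is built to remove the trend with GC over tested genes, so a weaker r with it is no separate result. With it r was 0.02, the median of the members 0.00, and 23 of 45 lay below 0. No member was called with the offset (background 0.0353% higher and 0.0212% lower). With the offset 2 members were higher and 4 lower at an unadjusted p under 0.05, with backgrounds of 3.24% and 3.78% of tested genes. The higher ones were *Ctsh* and *Atp6ap1*, and the lower ones *Smpd1*, *Tpp1*, *Mcoln1* and *Atp6v0a1*. With all libraries and no offset *Atp6v0a1* was not under 0.05 (unadjusted p = 0.0954 by edgeR). *Ctsh*, *Tpp1*, *Mcoln1* and *Atp6ap1* lay within 0.05 of their values without the offset, whereas *Gaa*, *Ctsd*, *Hexa* and *Psap*, with GC contents above 54%, moved towards or past 0. Whether the slope with GC arose in the cells or in the libraries cannot be told apart.

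**Figure D5:**
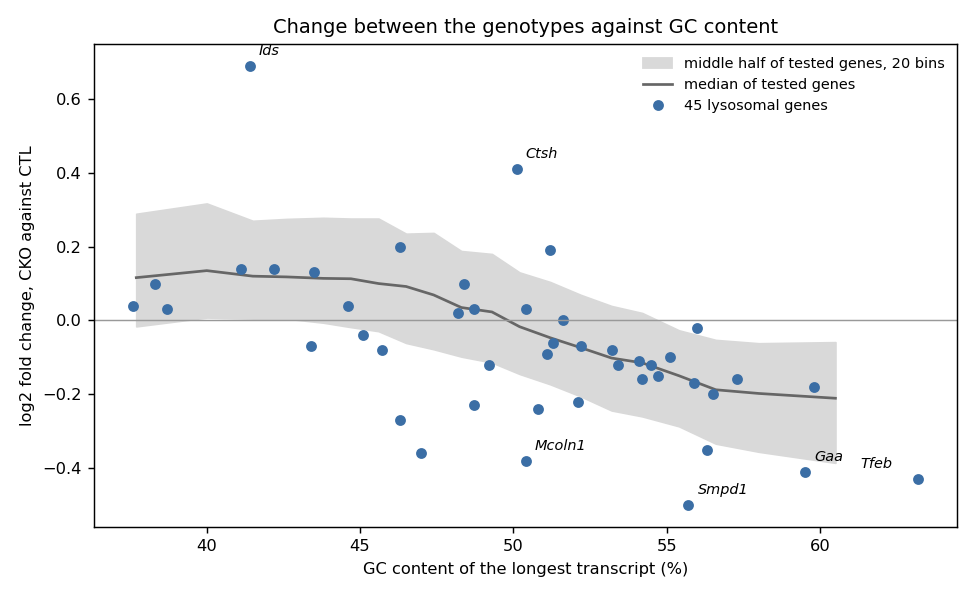
Log2 fold change of *Cited2* CKO against *Cited2* CTL plotted against the GC content (%) of the longest transcript, with the 45 members as points and the median and middle 50% of tested genes in 20 bins as a line and a grey band. The median of tested genes runs from 0.116 in the bin of lowest GC content to -0.211 in that of the highest. Most members follow it, with *Ids* and *Ctsh* among those above and *Atp6v0a1*, *Smpd1* and *Mcoln1* among those below.

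The rest of the pathway was followed through 74 further genes of lysosomal hydrolases, membrane proteins, the proton pump, sorting and MiT/TFE control, of which 71 were tested. None was called by edgeR, while *Igf2r*, *Ctsf* and *Grn*, lower in CKO, and *Ctss*, higher, had an adjusted p under 0.05 by DESeq2. With a fold change above 20% also required, DESeq2 called 1.24% of all tested genes lower and 1.04% higher. That rule is stricter than the one used for the genes just named, so these shares are not a matched background. Of the 71 pathway genes, 45 were below 0 and 26 above by edgeR, and their median log2 fold change was -0.07. At an unadjusted p under 0.05, 4 were higher and 9 lower, beside the backgrounds of 5.8% and 7.08%. *Igf2r*, which encodes the cation-independent of the 2 mannose 6-phosphate receptors that sort hydrolases to lysosomes, was at 21.7, 20.2, 21.2, 19.5 and 26.5 CPM in CTL and at 10.2, 11.1, 11.8, 3.82 and 4.84 CPM in CKO. The genotypes were well apart, at a log2 fold change of -1.37 ± 0.31 (adjusted p = 0.0865 by edgeR, 0.00297 by DESeq2), -1.46 with the offset and -1.53 without KO3. The gene of the other receptor, *M6pr*, was far more abundant and nearly level, at 274 ± 9.69 CPM in CTL and 269 ± 7.57 CPM in CKO (log2 fold change -0.02 ± 0.06). The protease gene *Ctsf* was likewise lower in every CKO library, at 43.7 to 61.4 CPM against 70.5 to 88.4 CPM in CTL (log2 fold change -0.49 ± 0.11, adjusted p = 0.0948 by edgeR and 0.01 by DESeq2). With the offset it was at -0.29 (adjusted p = 0.656 by edgeR), and without KO3 at -0.42. *Grn*, the progranulin gene, was at -0.27 ± 0.08 (adjusted p = 0.147 by edgeR and 0.0366 by DESeq2) and at -0.08 with the offset.

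*Ctss*, a cysteine protease of antigen-presenting cells, was at 57.5, 59.1, 49.7, 61.7 and 68.7 CPM in CTL and at 98.4, 84.1, 59.6, 99.4 and 120 CPM in CKO. The library labelled KO3 fell within the CTL range and the other CKO libraries were above it. The log2 fold change was 0.63 ± 0.16 (adjusted p = 0.117 by edgeR, 0.0171 by DESeq2), 0.54 with the offset, and 0.76 without KO3, where it was called (adjusted p = 0.0222 by edgeR). Of the upstream controls of the MiT/TFE factors, the folliculin gene *Flcn* was at -0.29 ± 0.09 (adjusted p = 0.223), or -0.12 with the offset, and the Rag GTPase gene *Rraga* at 0.20 ± 0.08 (adjusted p = 0.336), or 0.17.

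The density of counts on the members was below that of the densest genes. The highest count per base of transcript was 0.709 for a member in any library, with a median of 0.209, against 1.72 for the highest gene of at least 500 bases. The exons of 13 members overlap a gene on the opposite strand and those of 2, *Ctsd* and *Glb1*, a gene on the same strand. The use of strand in counting is not given in the sources used here, so the counts of these members may hold reads of their neighbours. Among the 8 members with an unadjusted p under 0.05, this concerns *Ctsd*.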

How the data were processed

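RNA was measured in sorted HSCs of 5 *Cited2* CTL and 5 *Cited2* CKO mice, 1 library per mouse, grouped by the genotype in the labels. The authors aligned reads to GRCm38 (mm10) with HISAT2 and deposited raw read counts per gene symbol with gene lengths. The annotation, the use of strand and any removal of duplicate reads are not given in the sources used here. Members and gene lists were chosen with earlier results of these data known. Counts of all genes were filtered (filterByExpr), scaled by TMM and tested for genotype with edgeR 4.0.16 (quasi-likelihood, R 4.3.3), with Benjamini-Hochberg adjustment over 14165 genes. Calls required an adjusted p under 0.05 and a fold change above 20%. CPM use TMM-scaled library sizes, RPKM the deposited lengths. GC content, known for 98.1% of tested genes, and positions came from GENCODE annotation on GRCm38, and the offset was a loess fit to GC content and length in each library. Alternatives were DESeq2 1.42.0, limma 3.58.1 (voom), DESeq2's size factors, other filters, *Xist* as covariate, a replicate block and each library left out. The fit was tested on simulated data. Values were given per library for MiT/TFE factors, members at an unadjusted p under 0.05 or without overlap, and in each role the members of smallest p and highest level. Of genes outside the list, the 3 of smallest p were chosen, and *Grn*, *M6pr*, *Flcn* and *Rraga* after their values were seen. Depth per library limits genes of few counts, such as *Tfeb*.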

Additional observations from a re-analysis of the deposited data

Results flagged for a closer look

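The 16 members given per library and *Cited2*, in each genotype, made 34 groups of 5 libraries. In 4 of these groups a library was far from the other 4 by Dixon's test, where chance gives about 1 in 20 for independent groups. The groups share the same libraries and the members were partly chosen by their values, so the count of groups is not a test. *Hexa* was at 187 CPM in WT1, with the other CTL libraries at 151 to 160 CPM. *Ids* was at 40.6 CPM in KO5, with the other CKO libraries at 12.3 to 20.3 CPM. *Tfeb* was at 12.6 CPM in KO4, with the other CKO libraries at 8.16 to 9.45 CPM, and only just passed (0.712 against a critical value of 0.71). *Cited2* was at 120 CPM in KO3, with the other CKO libraries at 3.8 to 8.3 CPM.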

How the results depend on the processing

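No alternative called a member higher. *Gaa* was called lower by DESeq2 (1 member) and without WT5 (1 member, log2 fold change -0.47, adjusted p = 0.035 by edgeR); leaving out each library gave 0 to 1 members lower, and the adjusted p of *Gaa* reached 0.197. Leaving out a library gave 1 (without KO2) to 3 members higher and 4 to 7 lower at an unadjusted p under 0.05, and a median log2 fold change from -0.11 to -0.067. Corrected for GC and length by the offset, the median was 0.00, and 0.001 with the replicate block added, where 2 members were lower at an unadjusted p under 0.05. With the offset, alone or with the block, *Ctsd* was at 0.02, *Hexa* at 0.07, *Laptm5* at 0.17 and *Psap* at 0.02, all above 0, and the cause was not tested. Leaving out a library moved *Laptm5* between -0.06 and 0.02, *Mitf* between -0.28 and 0.06, *Scarb2* between 0.05 (without KO2) and 0.36 (without KO4), *Ids* between 0.35 (without KO5) and 0.85, *Tfe3* between -0.28 and -0.12 (without WT1), *Hexa* between -0.13 and -0.05 (without WT1) and *Psap* between -0.20 and -0.10 (without WT1). *Cited2* was at -2.51 (adjusted p = 0.328 by edgeR; two-sided exact permutation p = 0.0159), at -3.99 with limma-voom, and from -4.92 (without KO3) to -2.23 with a library left out. Of 304 alternative values for 16 named members, 289 kept their direction and side of the threshold and 13 changed sign. Libraries with the same replicate number had deviations correlated at r of 0.01, -0.095, 0.208, 0.003 and 0.193 for numbers 1 to 5 over 14165 genes. Number 5 was the single one to correlate best with its own number (0.028 at most with another), so the numbers were not taken as pairs, and the replicate block left 0 members called, 3 higher and 5 lower at an unadjusted p under 0.05. An adjusted p above the threshold does not show that a gene was unchanged.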

Other observations

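The highest value among the 10 libraries was that of WT1 for 14 of the 45 members, and the lowest was that of KO3 for 12. Other libraries held the highest value for 1 to 8 members and the lowest for 2 to 5. *Xist* was above 100 CPM in 2 CTL and 2 CKO libraries, the lowest of these at 1250 CPM and the highest of the others at 19.7 CPM, so both genotypes held libraries of both kinds. With *Xist* as a covariate the log2 fold change of *Ids*, one of 5 members on the X chromosome, was 0.62 beside 0.69 without it.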
